A study of Mus musculus with 4 samples.

Results

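Circular RNAs (circRNAs) of the mouse infarct core near the occipital lobe were compared with those of sham cortex, using 1 library of pooled RNA on each side. The circRNAs described are the 3424 with 10 or more counts over the 2 libraries, of 23980 in the whole table (14.3%), and they held 71.7% of the counts of the core occipital library and 73.0% of those of the sham library. The core occipital library came from mice with permanent middle cerebral artery occlusion (MCAO) by an intraluminal filament, sampled at 3 h, and the RNA of 6 mice was mixed before the library was made. The sham library is labelled as a sham operation, with cortex that matches both the core and the penumbra. It therefore differs from the core occipital library in brain region as well as in operation, and the 2 cannot be told apart. How many sham mice were used, when they were sampled, and the strain, sex and age of all animals, are not stated in the labels. The study also made a library of the core near the frontal lobe and one of the penumbra, whose levels are given beside some circRNAs for orientation and are not compared.

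A circRNA forms when the spliceosome joins the end of a downstream exon back to the start of an upstream one, which closes the exons between them into a ring without free ends. Rings lack the ends that exonucleases attack, so they tend to outlast the linear messenger RNA of the same gene, and the brain is rich in them, above all in circles from synaptic genes. Occlusion of the middle cerebral artery cuts the blood flow to a large part of the cortex. The core is the part with the least flow, where energy stores and ion gradients fail within minutes, and the penumbra is the part around it that is short of blood but can still be saved.

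The core occipital library held 83090 circRNA counts and the sham library 106558. Counts were divided by these totals and are given as counts relative to 1000000 circRNA counts (CPM). In CPM, 3 counts, the floor used below for a library at 0, came to 36.1 in core occipital and 28.2 in sham. With 1 library a side no value has a replicate error, so every interval (95%) and every p below covers counting error alone and compares these libraries, not the conditions. Counts of polymerase chain reaction products without molecular identifiers are not independent molecules either. In bulk RNA, fewer cells of a type and less RNA per cell cannot be told apart.

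The tissue label was checked against circRNAs of genes that mark brain cell types. Circles of 10 neuronal marker genes summed to 1434 counts in core occipital and 1677 in sham, or 17258 against 15738 CPM. Of these genes, 4 had no counts in either library, among them the glutamate transporter gene Slc17a7 and the GABA synthesis genes Gad1 and Gad2. Markers of other cells were scarce, with 19 counts in core occipital and 15 in sham for 8 astrocyte genes, 22 in core occipital and 24 in sham for 8 oligodendrocyte genes, and 3 in core occipital and 2 in sham for 7 endothelial genes. All 6 microglial genes were at 0 in both libraries. Because many of these genes make no circle in this table, the lists say little about cell numbers. The 5 genes of upper cortical layers summed to 178 counts in core occipital and 145 in sham, or 2142 (1839 to 2481) against 1361 (1148 to 1601) CPM, while 6 genes of deep layers summed to 101 counts in core occipital and 123 in sham, or 1216 (990 to 1477) against 1154 (959 to 1377) CPM. Most of the upper-layer sum was Satb1 with 101 counts in core occipital and 77 in sham, and Cux1 with 42 in core occipital and 25 in sham. The 8 striatal genes summed to 25 counts in core occipital and 22 in sham, or 301 (195 to 444) against 206 (129 to 313) CPM, of which Pde10a gave 21 in core occipital and 19 in sham. The defining striatal genes Drd1, Drd2 and Adora2a make no circle in this table, so their zeros carry no information on striatum. The part that the mix of cortical layers has in the results below was not tested.

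Abundant circRNAs had similar levels in the core occipital and the sham library. The median log2 ratio of core occipital to sham over the 3424 circRNAs, with 0.5 added to each count, was -0.04. Among the 232 with 100 or more counts, the middle 90% of log2 ratios ran between -0.67 and 0.66, and 3 circRNAs had a ratio of at least 2 and 2 a ratio of at most 0.5. This scatter was wider than counting error gives and came to a coefficient of variation of 17.1% for a library. It was taken from core occipital against sham, so it holds any difference between them as well as scatter between libraries. The median circRNA had 20 counts over both libraries, so counting error is wide for most of the set. The 333 circRNAs at exactly 10 counts had a median log2 ratio of -0.17, and the 411 left out at 9 counts had one of 0.07. Whole-number splits of 10 and of 9 counts allow only a few ratios, so these medians do not show a shift at the filter. There were 15921 circRNAs detected in core occipital, 16226 in sham and 11102 in both, of 21045 in either. These numbers are not adjusted for the unequal totals of 83090 and 106558 counts.

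**Figure D1:**
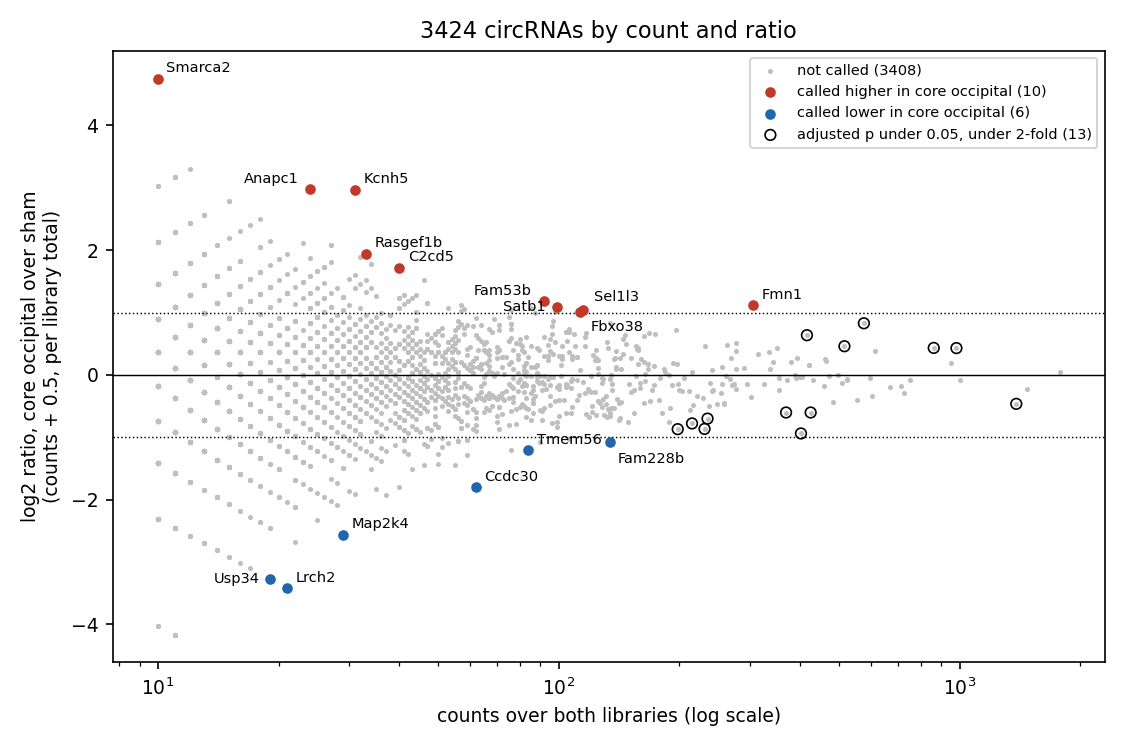
Log2 ratio of core occipital to sham (y axis, 0.5 added to each count, each library scaled to its total) against the counts over both libraries (x axis, log scale) for 3424 circRNAs. Red and blue points are the 10 circRNAs called higher and the 6 called lower in core occipital, open rings the 13 at an adjusted p under 0.05 with less than a 2-fold difference, and dotted lines mark 2-fold. The scatter narrows as counts grow, and Smarca2, at 10 counts in core occipital against 0 in sham, is drawn from the added 0.5 and not from the floor.

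A circRNA was called when Fisher's exact test (two-sided, Benjamini-Hochberg adjustment over all 3424) gave an adjusted p under 0.05 and the CPM ratio was at least 2 in either direction. This gave 10 circRNAs higher in core occipital (0.292% of those tested) and 6 lower (0.175%), or 16 in all (0.467%), against 432 at an unadjusted p under 0.05. Fisher's exact test leaves out the scatter of 17.1% beyond counting error. Of these calls, the exact test of edgeR kept Kcnh5 alone with a coefficient of variation set to 0.1, and 0 with it set to 0.2. Without regard to p, 387 (11.3%) had a ratio of at least 2 and 447 (13.1%) one of at most 0.5. The split of calls depends on the scaling of the pair. TMM factors computed on these circRNAs gave 17 higher and 4 lower, DESeq2 size factors gave 17 and 4, and TMM factors of all 4 libraries over the whole table gave 5 and 16. These scalings moved every log2 ratio by 0.045, 0.056 and -0.11. At these depths a circRNA with 10 counts in sham needed 27 in core occipital to pass the adjusted p, a ratio of 3.46, and one with 100 counts needed 126, a ratio of 1.62.

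Of the 10 circRNAs called higher, the largest in counts was exon 2 of Fmn1 (chr2:113363836-113365829), a formin that nucleates actin filaments, with 192 counts in core occipital and 113 in sham, or 2311 against 1060 CPM. The ratio was 2.18 (1.72 to 2.77), and the frontal core and the penumbra held 1466 and 1578 CPM. Kcnh5 encodes a voltage-gated potassium channel, and its circle of exons 4 to 7 (chr12:75087405-75131026) had 27 counts in core occipital and 4 in sham, or 325 against 37.5 CPM. The frontal core and the penumbra, at 98.9 and 104 CPM, lay between these values. Anapc1 encodes the largest subunit of the anaphase-promoting complex, a ubiquitin ligase, and its circle of exons 3 to 14 (chr2:128668925-128684663) had 21 counts in core occipital against 3 in sham, or 253 CPM in core occipital against 28.2 in sham. Fbxo38, an F-box protein of another ubiquitin ligase, made a circle of exons 2 to 14 with 69 counts in core occipital against 44 in sham, or 830 CPM in core occipital and 413 in sham. It was the only circle of Fbxo38 in the table used here, and the penumbra held less of it than sham did, at 332 CPM.

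Of the other 6 called higher, Satb1 and Smarca2 encode chromatin proteins. Satb1, a chromatin organizer of cortical neurons that also stands in the upper-layer marker list, had 62 counts of the circle of exons 2 to 9 (chr17:51767892-51809287) in core occipital and 37 in sham. Smarca2, an ATPase of the BAF chromatin remodeling complex, had 10 counts of exons 2 to 5 (chr19:26619684-26640649) in core occipital and 0 in sham. Its ratio was 4.27 with sham set to 3 counts, and the lower limit of its interval was 2.87. These 10 counts, all from core occipital, just met the count filter. Rasgef1b, an exchange factor of small GTPases, had 25 counts of exons 5 to 7 in core occipital against 8 in sham, and C2cd5, a C2-domain protein of vesicle traffic, had 29 of exons 8 to 22 in core occipital against 11 in sham. The remaining pair were Fam53b exons 2 to 4 (chr7:132759389-132779385) with 59 counts in core occipital against 33 in sham, and exon 2 of Sel1l3 with 71 in core occipital against 44 in sham. All 10 stood highest in core occipital among the 4 libraries and 9 stood lowest in sham, Fbxo38 being the exception, a place that their choice favours.

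Of the 6 circRNAs called lower, 4 have both ends on exon boundaries. Map2k4, a kinase that activates the stress kinases JNK and p38, had 3 counts of the circle of exons 2 and 3 (chr11:65756269-65775765) in core occipital and 26 in sham, or 36.1 against 244 CPM, with 140 and 114 CPM in the frontal core and the penumbra. The ratio was 0.148 (0.0287 to 0.483). Over all Map2k4 circles the counts were 67 in core occipital and 130 in sham, a ratio of 0.661 (0.485 to 0.894) that did not pass the test over host genes (Fisher's exact test, adjusted p = 0.148). Usp34 removes ubiquitin from proteins, and its circle of exons 8 to 10 (chr11:23351592-23355098) had 1 count in core occipital and 18 in sham. Fam228b had 36 counts of exons 3 to 5 (chr12:4762327-4764147) in core occipital against 98 in sham, or 433 CPM in core occipital and 920 in sham. Tmem56, a membrane protein, had 21 counts of exons 4 to 8 in core occipital against 63 in sham. The other two had ends off exon boundaries. Ccdc30 (chr4:119339761-119340684, 1 end on a boundary) had 11 counts in core occipital against 51 in sham, and Lrch2 (chrX:147484302-147484418, neither end on one) had 1 in core occipital against 20 in sham. Of the 6, Ccdc30 was lower still in the frontal core, at 82.4 CPM against 132 in core occipital and 479 in sham, and the other 5 stood lowest in core occipital. Sham stood highest among the 4 libraries for 5 of the 6, a place that their choice favours. The exception was Tmem56, at 610 CPM in the frontal core against 591 in sham.

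**Figure D2:**
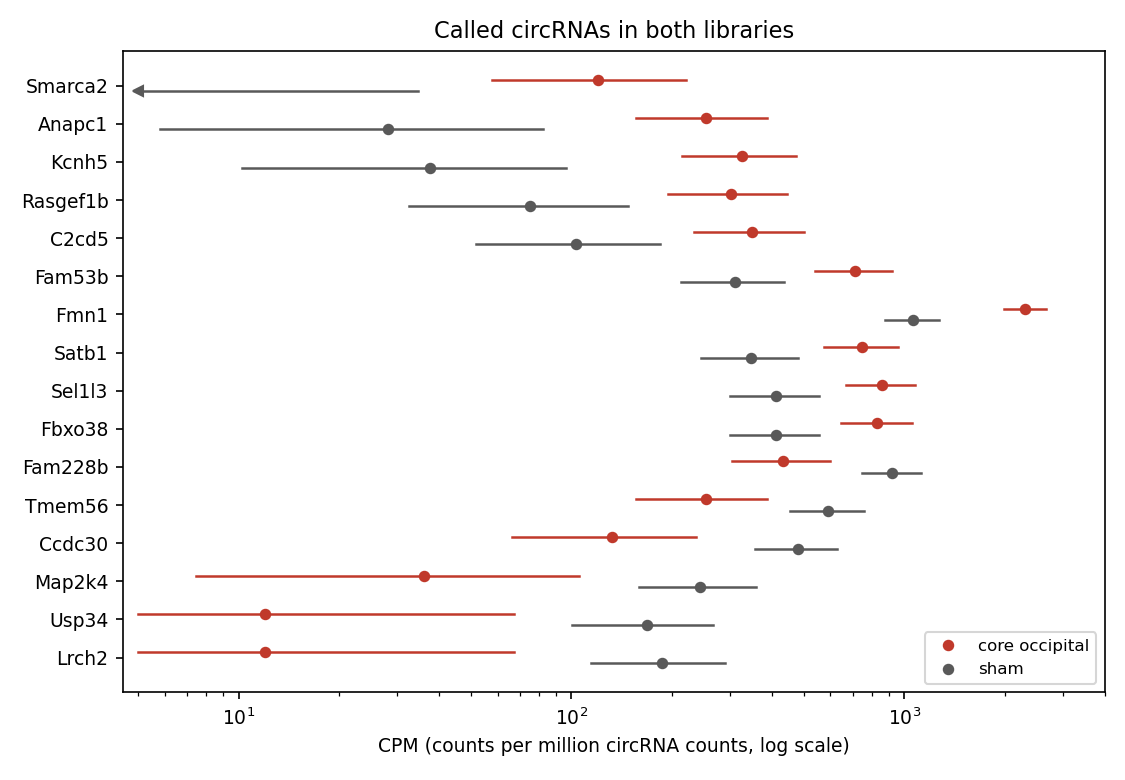
CPM (x axis, log scale) of the 16 called circRNAs in core occipital (red) and sham (grey), named by host gene, with 95% Poisson intervals that cover counting error only. The arrow for Smarca2 marks 0 counts in sham, with the upper limit of the interval. Intervals of the 2 libraries are close together for Fbxo38 and Sel1l3 and far apart for Kcnh5 and Map2k4.

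The GC-poor circles of Map2k4 and Usp34 are shown because base composition went with the ratio across all circRNAs. With the spliced length trend removed, the ratio of Map2k4 was 0.142 and still called, and that of Usp34 was 0.0747 and not called (adjusted p = 0.0834 by an exact binomial test). With the GC trend removed neither was called. The ratios were then 0.173 for Map2k4 and 0.0891 for Usp34 (adjusted p = 0.0892 and 0.123 by an exact binomial test). Sequences are in the sense of the host, from GENCODE M21 transcripts (GRCm38), with the 10 bases at each end in capitals, since those ends are joined to each other in the circle. The Map2k4 circle is 136 bases long with 41.9% GC and that of Usp34 237 bases with 38.8%. The Fam228b circle, also called lower, has 342 bases and 31.0% GC, whereas that of Rasgef1b, called higher, has 444 bases and 50.7% GC.
Map2k4 exons 2 to 3: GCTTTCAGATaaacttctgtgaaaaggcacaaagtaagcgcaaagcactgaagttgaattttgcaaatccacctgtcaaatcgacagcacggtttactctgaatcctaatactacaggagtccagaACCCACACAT
Usp34 exons 8 to 10: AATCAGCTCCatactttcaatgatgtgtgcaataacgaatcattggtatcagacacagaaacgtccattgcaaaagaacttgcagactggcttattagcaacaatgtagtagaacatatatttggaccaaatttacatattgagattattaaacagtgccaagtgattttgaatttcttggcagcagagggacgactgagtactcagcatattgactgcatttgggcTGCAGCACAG

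The ratio of core occipital to sham climbed with the GC content of the spliced circle. A GC value could be derived for 3049 circRNAs (89.0%), and over 5 bins of nearly equal size by GC, low to high, the median log2 ratio was -0.27, -0.10, -0.04, 0.14 and 0.22. The fitted slope was 0.34 on the log2 scale for each 10 percentage points of GC (Spearman's rho = 0.21 across circRNAs, which share both libraries). The slope was 0.33 among circRNAs with 30 or more counts, 0.34 in the 2866 multi-exon circles and 0.14 in the 183 single-exon circles. All 4 lower calls with a GC value, Map2k4, Usp34, Fam228b and Tmem56, lay in the bin of lowest GC, where no circRNA was called higher. Of the 10 higher calls, 4 lay in the bin of highest GC, with Smarca2 at 61.5% GC and Fam53b at 58.2%.

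The ratio differed by spliced length as well, and was lowest at 250 to under 500 bases and not in the shortest circles. Circles of 1000 bases or more summed to 8716 counts in core occipital and 9484 in sham, a pooled CPM ratio of 1.18, and those of 250 to under 500 bases to 21365 in core occipital and 30471 in sham, a ratio of 0.899. Circles under 250 bases summed to 5871 counts in core occipital and 8072 in sham, a ratio of 0.933. Of the 486 long circles, 12 were higher at an adjusted p under 0.05 by Fisher's exact test and 0 lower, where 0.438% of all circRNAs were higher and 0.409% lower, whereas of the 1252 circles of 250 to under 500 bases 1 was higher and 7 were lower. Among circles above the median GC the median log2 ratio was 0.39 for 1000 bases or more and -0.02 for 250 to under 500 bases. At or below the median GC these were 0.02 and -0.33. Circles under 250 bases lay between, at 0.12 above the median GC and -0.18 at or below it. Of the 10 higher calls, 8 were circles of 1000 bases or more.

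**Figure D3:**
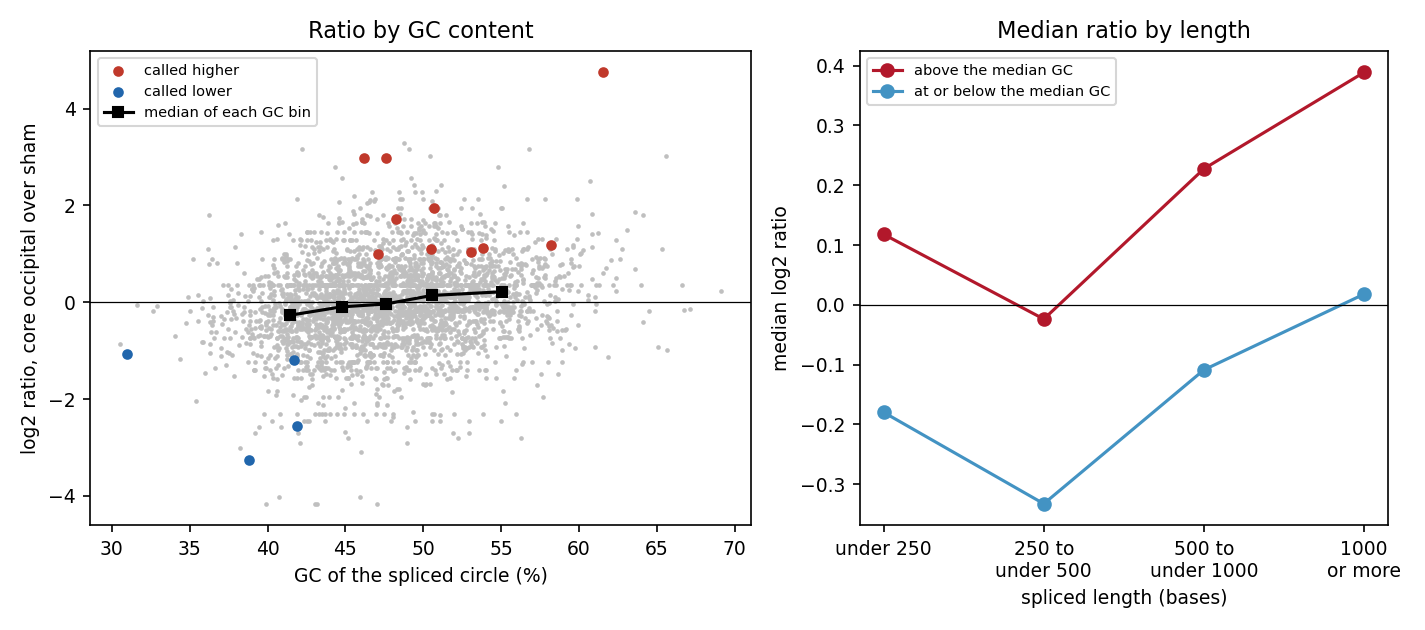
Left, log2 ratio of core occipital to sham against the GC content of the spliced circle (%) for 3049 circRNAs, with the median of each of the 5 GC bins as black squares and called circRNAs in red (higher) and blue (lower). Right, median log2 ratio by spliced length in bases, above (red) and at or below (blue) the median GC. The medians climb with GC on the left, and on the right both lines are lowest at 250 to under 500 bases and highest at 1000 or more.

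With the GC trend removed, 4 circRNAs were called higher and 2 lower. Kcnh5, Anapc1 and Fbxo38 remained called higher, with ratios of 8.96, 8.95 and 2.03, while Ccdc30 and Lrch2 remained lower, for which no GC content could be derived and so no correction made. Fmn1 had a ratio of 1.95 and an adjusted p of 1.14e-05 by an exact binomial test and so fell short of 2-fold. Fam228b, the circle of 31.0% GC, had a ratio of 0.687 in place of 0.471. Smarca2, the circle of 61.5% GC, was not called (adjusted p = 0.129 by an exact binomial test). With the spliced length trend removed as well, Kcnh5 (8.03) and Anapc1 (7.65) were higher calls that remained. Removing the GC trend lowered the scatter beyond counting error among abundant circRNAs to 14.5%, against 17.3% before, and the part that GC, length or RNA quality of the libraries has in the calls was not tested.

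A further 13 circRNAs passed an adjusted p under 0.05 by Fisher's exact test with less than a 2-fold difference, for 29 in all (0.847% of those tested), 15 higher and 14 lower. The 5 higher ones are circles of 1 or 2 exons and 667 to 5772 bases. Exon 2 of Tcf20, a transcriptional coregulator, had 335 counts in core occipital and 242 in sham, or 4032 against 2271 CPM, and spans 5772 bases (chr15:82851513-82857284). Its ratio of 1.78 (1.50 to 2.10) had the smallest p of all 3424 circRNAs (adjusted p = 2.50e-08 by Fisher's exact test). With the length trend removed it was 1.38. Plcl2, a phospholipase C-like protein without catalytic activity, had 228 counts of exons 2 and 3 (2691 bases) in core occipital against 188 in sham, a ratio of 1.56, and 1.29 with the length trend removed. The giant cadherin Fat3, the sodium-calcium exchanger Slc8a1 and the chromodomain protein Cdyl also have single-exon circles, with ratios of 1.35, 1.35 and 1.38. With the length trend removed these were 1.09, 1.16 and 1.33, and of the 5 higher ones Tcf20 alone still passed the adjusted p of an exact binomial test. With the GC trend removed as well, Tcf20 had a ratio of 1.23 and did not pass (adjusted p = 0.287 by an exact binomial test). Fat3, Plcl2, Slc8a1 and Cdyl did not pass then either. With the GC trend alone removed, 4 of the 5, Fat3, Plcl2, Slc8a1 and Tcf20, still passed.

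The 8 lower ones are circles of 2 to 5 exons and 220 to 694 bases. Ptk2, the focal adhesion kinase, had 116 counts of a circle of 323 bases without coding sequence (chr15:73391759-73394744) in core occipital and 286 in sham, or 1396 against 2684 CPM, a ratio of 0.520 (0.416 to 0.648). Acaca, the acetyl-CoA carboxylase that commits carbon to fatty acid synthesis, had 67 counts of exons 2 and 3 in core occipital against 148 in sham. Mboat2, a lysophospholipid acyltransferase, had 144 in core occipital against 281 in sham, and Zdhhc21, which attaches palmitate to proteins, had 59 in core occipital against 139 in sham. Klhdc2, a substrate receptor of a cullin ubiquitin ligase, had 69 in core occipital against 162 in sham, and the Ras inhibitor Rasa2 had 76 in core occipital against 159 in sham, at a GC content of 34.1%. Ssbp2, a transcription cofactor, and Anks1b, a postsynaptic scaffold, complete the list with ratios of 0.725 and 0.657. With the GC trend removed, 3 of the 8, Klhdc2, Ptk2 and Ssbp2, still passed the adjusted p of an exact binomial test. With the spliced length trend removed instead, 3 of the 8 passed, Ptk2, Ssbp2 and Zdhhc21. With both trends removed, Ssbp2 and Ptk2 had an adjusted p of 0.0126 and 0.0525 by an exact binomial test, and Ssbp2 alone of the 8 passed.

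Counts were then summed over all circles of a host gene, which gathers circles too rare to test alone. Of 2421 host genes with 10 or more summed counts, 14 were called higher in core occipital (0.578%) and 9 lower (0.372%) by the same test and fold rule, and 45 (1.86%) passed the adjusted p at any fold, 28 higher and 17 lower. At an unadjusted p under 0.05 there were 327. The host called lower with the smallest p was Itga8, the integrin alpha 8 chain, with 3 counts in core occipital against 37 in sham, a ratio of 0.104 (0.0205 to 0.328). Its 3 largest circles were all lower in count, with 2 in core occipital against 16 in sham for exons 22 to 24, 1 in core occipital against 9 in sham for exons 7 to 11, and 0 in core occipital against 9 in sham for exons 3 to 13. Ubr1, a ubiquitin ligase that reads the first residue of proteins, had 3 counts over its circles in core occipital against 29 in sham, and none of these circles had 10 counts, so the gene is seen in the sums alone. Exoc6, of the exocyst that tethers secretory vesicles, had 8 counts in core occipital against 46 in sham, of which the circle of exons 2 to 18 gave 5 in core occipital and 26 in sham.

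Other hosts called lower were led by a single circle or held few counts. Acsl3, which activates long-chain fatty acids, had 19 counts in core occipital against 64 in sham, or 229 against 601 CPM, and its circle of exons 4 and 5 gave 19 counts in core occipital and 57 in sham. Ephx4, an epoxide hydrolase, had 0 counts in core occipital against 14 in sham. With 3 counts in place of 0 it was 3.64-fold lower in core occipital, and the interval reached down to 2.59-fold. E2f5, a transcription factor of the cell cycle, had 29 counts in core occipital against 77 in sham in a single junction with 1 end on an exon boundary (chr3:14587310-14588313). Ccdc30, Tmem56 and Fam228b were also lower as sums, with ratios of 0.428, 0.457 and 0.484.

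The hosts called higher differed in role. Vps53, of the complex that returns endosomes to the Golgi, had 28 counts in core occipital against 8 in sham over 9 detected circles, none with 10 counts, a ratio of 4.49 (1.99 to 11.4). Eprs, the enzyme that charges transfer RNA with glutamate and proline, had 24 counts in core occipital against 6 in sham, of which exons 11 to 15 gave 18 in core occipital and 5 in sham. Myo6, a myosin that walks toward the minus end of actin, had 18 in core occipital against 3 in sham, of which exons 21 to 26 gave 13 in core occipital and 2 in sham. Pcca, a subunit of the mitochondrial propionyl-CoA carboxylase, had 56 counts in core occipital against 30 in sham, or 674 against 282 CPM, over 16 detected circles. Ccar2, a nuclear inhibitor of a sirtuin deacetylase, had 34 in core occipital against 14 in sham. Dnmbp, an exchange factor of Cdc42, had 27 in core occipital against 9 in sham, and Spin1, a reader of histone methylation, had 17 in core occipital against 4 in sham. Gm47283 had 24 counts in core occipital against 8 in sham, in junctions on chromosome Y near the part shared with X, where reads may not be assignable. The other hosts called higher were C87436, Zfhx4, Sdccag8, Rasgef1b, C2cd5 and Fbxo38, the last 3 of which also have a circle called on its own.

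**Figure D4:**
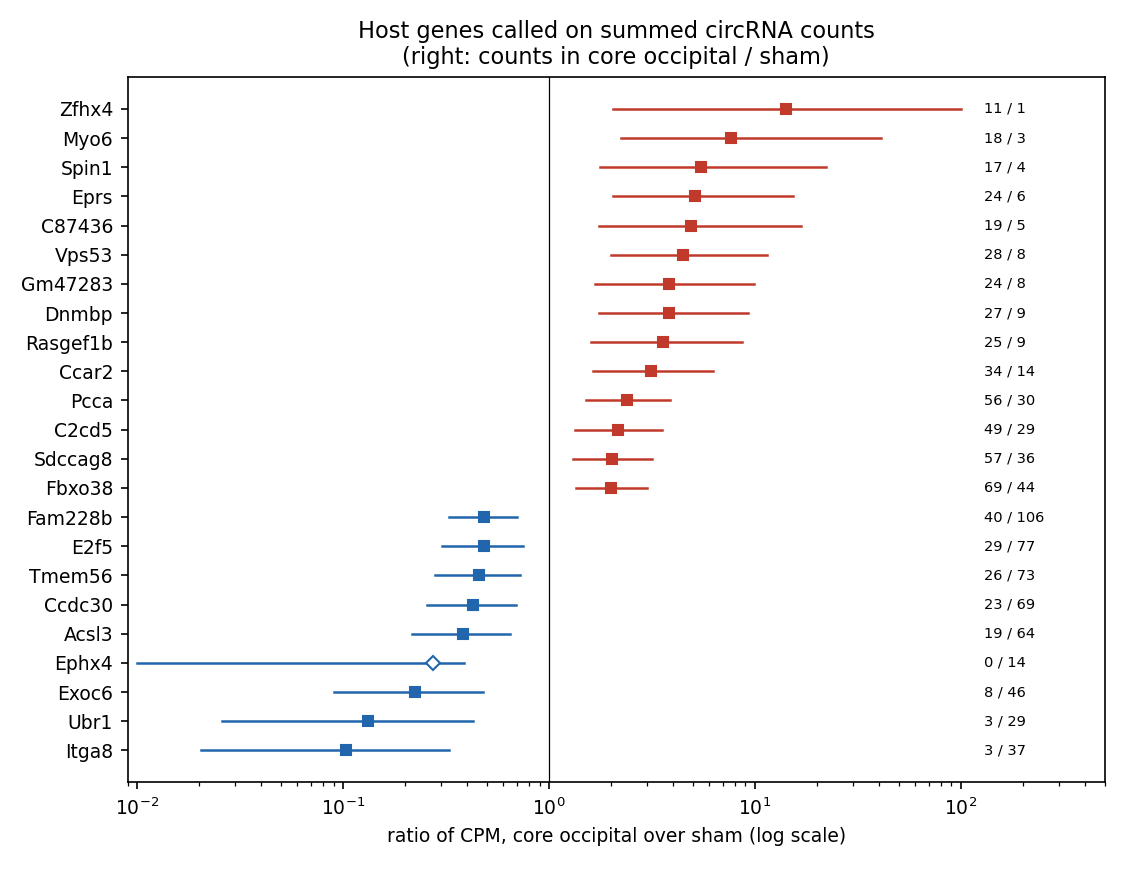
Ratio of summed circRNA CPM, core occipital over sham (x axis, log scale), for the 14 host genes called higher (red) and the 9 called lower (blue), with 95% exact conditional intervals and the counts in core occipital and sham at the right. The open diamond for Ephx4 is drawn with 3 counts in place of 0. Intervals are wide where a library held fewer than 10 counts, as for Zfhx4 and Itga8.

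Several large hosts moved by less than 2-fold. Snhg14, a long noncoding RNA gene that hosts many small nucleolar RNAs, had 175 counts in core occipital and 137 in sham spread over 115 detected circles, a ratio of 1.64 (1.30 to 2.06). Erc2, a scaffold of the presynaptic active zone, had 386 counts in core occipital against 365 in sham over 36 detected circles, a ratio of 1.36 (1.17 to 1.57), although no circle of it was called, and with the GC trend removed it was 1.24 (adjusted p = 0.105 by an exact binomial test). Map3k5, the stress kinase ASK1 that acts upstream of Map2k4, had 84 in core occipital against 57 in sham, a ratio of 1.89 (1.33 to 2.69). Over 64 detected circles Ptk2 had 367 counts in core occipital against 673 in sham, a ratio of 0.699 (0.614 to 0.795). With the GC trend removed, 26 of the 45 hosts still passed the adjusted p of an exact binomial test. Of all hosts, 7 were then called higher and 6 lower, among them Itga8, Exoc6, Ubr1, Vps53, Eprs, Pcca and Myo6. These numbers include Gm47283 (higher) and E2f5 (lower), which have no GC value, so no correction was made and their test stayed Fisher's. The correction of Ccdc30, also called lower, rested on its rarer circles, since its largest junction has no GC value.

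Dividing a circle's count by that of the other circles of its host removes the scaling of the libraries, but not the trends with GC and spliced length. The part that these trends have in the shares was not tested. Of 2751 circRNAs in 1128 hosts tested in this way with Fisher's exact test, 5 differed in their share at an adjusted p under 0.05 (0.182%), with 262 at an unadjusted p under 0.05. Kcnh5 exons 4 to 7 made up 22.9% of the circRNA counts of Kcnh5 in core occipital (27 of 118) and 2.99% in sham (4 of 134), with an adjusted p of 0.00338 by Fisher's exact test. The sum over Kcnh5 did not pass, at a ratio of 1.13 (0.874 to 1.46). The circle of exons 2 to 6, the most abundant of the gene, had 29 counts in core occipital against 62 in sham. It has 869 bases and 41.9% GC, and the circle of exons 4 to 7 has 1065 bases and 46.2% GC. The back-splice junctions are shown because the circle that differed shares its first exon with 4 to 6 and not its last, with 20 bases from the end of the last exon in lower case and the first 20 bases of the first exon in capitals (host strand, GENCODE M21).
Kcnh5 exons 4 to 7: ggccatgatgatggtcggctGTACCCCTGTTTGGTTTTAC
Kcnh5 exons 4 to 6: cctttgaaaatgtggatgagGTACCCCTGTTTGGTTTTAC
Kcnh5 exons 2 to 6: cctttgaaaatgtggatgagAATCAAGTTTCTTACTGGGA
The circle of exons 4 to 6 had 4 counts in core occipital and 10 in sham.

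In Rere, a nuclear receptor coregulator, 1 circle differed in share. Exons 4 to 11 (chr4:150439343-150534945) had 47 counts in core occipital and 29 in sham, or 16.2% against 6.74% of the gene's circRNA counts. Exons 4 to 10 (chr4:150439343-150510038), which start at the same base and stop an exon earlier, had 12 counts in core occipital against 38 in sham. The pair that starts at exon 5 did not follow this pattern, with 43 counts in core occipital against 69 in sham for exons 5 to 11 and 24 in core occipital against 23 in sham for exons 5 to 10. The adjusted p of the share of exons 4 to 11 was 0.0425 (Fisher's exact test), while its CPM ratio of 2.08 missed the threshold over all circRNAs (adjusted p = 0.0885 by Fisher's exact test). Their junctions, shown as above, differ in the lower-case part alone.
Rere exons 4 to 11: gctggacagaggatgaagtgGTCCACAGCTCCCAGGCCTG
Rere exons 4 to 10: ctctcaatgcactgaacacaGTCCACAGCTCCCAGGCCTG

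Anapc1, Smarca2 and Anks1b also differed in share, each at an adjusted p of 0.0425 by Fisher's exact test. Anapc1 exons 3 to 14 made up 72.4% of 29 counts in core occipital and 13.6% of 22 in sham, while no other Anapc1 circle had more than 3 counts in either library. The junction of this Anapc1 circle, the one with the largest shift in share of the 5, follows the paragraph in the same lettering as above. Smarca2 exons 2 to 5 made up 27.0% of 37 counts in core occipital and 0 of 51 in sham. The longer Smarca2 circle of exons 2 to 9, which starts at the same exon, had 11 counts in core occipital against 20 in sham. Anks1b exons 5 to 8 made up 32.6% of 383 counts in core occipital against 45.6% of 535 in sham. Its circle of exons 3 to 8, with the same last exon, had 27 counts in core occipital against 14 in sham, and that of exons 4 to 8 had 53 in core occipital against 49 in sham.
Anapc1 exons 3 to 14: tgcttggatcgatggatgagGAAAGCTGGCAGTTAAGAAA

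**Figure D5:**
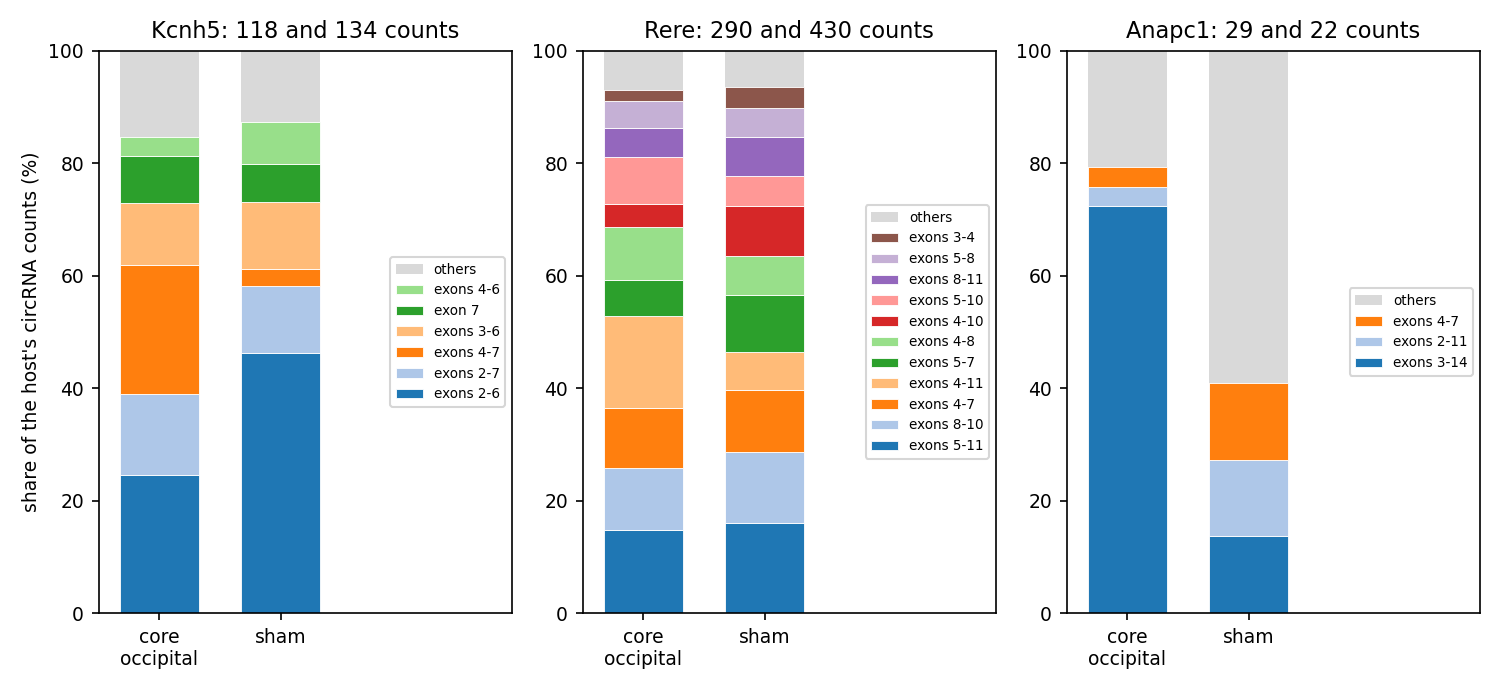
Share (%) of each host gene's circRNA counts held by its circles in core occipital (left bar) and sham (right bar) for Kcnh5, Rere and Anapc1, with the host's total counts in the titles in the same order. Circles are named by their exons and the grey part is the sum of the rarer ones. Kcnh5 exons 4 to 7, Rere exons 4 to 11 and Anapc1 exons 3 to 14 take larger shares in core occipital.

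Host genes were also read in 9 lists by role, against a median log2 ratio of -0.0012 over all 2421 host sums. Genes of presynaptic release had a median of 0.20 over 23 host sums and summed to 36647 (35357 to 37972) CPM in core occipital and 33409 (32321 to 34525) in sham. Of them Erc2 passed the adjusted p, and the largest, Rims1 of the active zone, had 987 counts in core occipital against 1125 in sham, a ratio of 1.13 (1.03 to 1.23) that did not pass. Actin and membrane skeleton genes had a median of 0.25 over 30 host sums, with 3 higher at the adjusted p, Fmn1, Myo6 and Phactr1, and 0 lower, while its 50 single circRNAs had a median of -0.02, with Fmn1 called higher and Lrch2 lower, where 1.86% of all host sums passed in either direction. Phactr1, which binds actin and protein phosphatase 1, had 68 counts in core occipital and 46 in sham and did not pass with the GC trend removed (adjusted p = 0.164 by an exact binomial test). Stress and death kinases had a median of -0.26 over 24 host sums, with Map3k5 higher and 0 lower at the adjusted p.

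Genes of oxygen sensing and energy metabolism had a median of -0.08 over 18 host sums but one of 0.30 over their 25 single circRNAs, whose summed counts had a pooled ratio of 0.844, with Pcca higher and Acaca and Acsl3 lower at the adjusted p, and 24 of the 56 genes had no count in either library. Ogdh, of the citric acid cycle, had 54 counts over its circles in core occipital and 102 in sham, a ratio of 0.679 (0.479 to 0.953) that did not pass. Of 39 immediate early and activity-linked genes, 32 had no count in either library, among them Arc and Atf3, the median over 4 host sums was 0.36, and Rasgef1b alone passed. Excitatory synapse genes had a median of 0.02 over 27 host sums with none past the adjusted p, ion channels, pumps and exchangers one of 0.10 over 40 with Slc8a1 higher, ubiquitin ligases and deubiquitinases one of -0.05 over 52 with Fbxo38 higher and Ubr1 lower, and chromatin and transcription genes one of -0.04 over 54 with Satb1 higher. Over single circRNAs the medians of the activity-linked list (-0.05) and the ubiquitin list (0.14) also differ in sign from those of the host sums, against -0.04 over all circRNAs. The host medians of the excitatory, ion channel, ubiquitin and chromatin lists change sign with the scaling, while those of the presynaptic, actin and stress kinase lists kept their sign under the 4 scalings tried.

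Of the 10 most abundant circRNAs, Ssbp2, Fat3 and Slc8a1 passed the adjusted p as given above and the other 7 did not. The circle of Tulp4 had 792 counts in core occipital and 985 in sham, a ratio of 1.03 (0.938 to 1.13), and exon 2 of Med13l, a Mediator subunit, 426 in core occipital and 578 in sham, a ratio of 0.945 (0.832 to 1.07). Of circles often studied in brain, Homer1 exons 2 to 5 had a ratio of 0.966 (0.786 to 1.19) in core occipital over sham, Rims2 exons 20 to 22 one of 0.943 (0.789 to 1.12) and exon 2 of Hipk3 one of 1.21 (0.984 to 1.48). Among the 573 circRNAs with 50 or more counts, the highest ratios outside the calls belonged to Ntrk3 exons 5 to 12, from the receptor of neurotrophin 3, with 36 counts in core occipital against 21 in sham, and to Epb41l1 exons 11 to 15, from a protein that ties the membrane to the actin skeleton, with 53 in core occipital against 32 in sham. The lowest outside the calls belonged to Rasal2 with 12 counts in core occipital against 43 in sham, Enah, an actin regulator, with 11 in core occipital against 39 in sham, Rapgef6 with 14 in core occipital against 45 in sham, and the Rere circle of exons 4 to 10. None of these passed the adjusted p of Fisher's exact test, which lay between 0.0597 and 0.141.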

How the data were processed

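The deposited table holds whole-number read counts per circRNA in 4 libraries, unnormalized, identified by chromosome, start and end. TopHat2 2.0.10, Bowtie and mm9 are named per the submitters' processing notes, and the circRNA caller is not given in the sources used here. The coordinates match GRCm38: 89.1% of starts and 89.7% of ends lie on GENCODE M21 exon boundaries, against 0.192% of starts moved by 1 base. Neither strand nor gene names are deposited, so hosts, strands, exon numbers and spliced sequences come from GENCODE M21, so a circle in genes that overlap on opposite strands may be given to the wrong one. The labels name both a TruSeq and a directional NEBNext kit after ribosomal RNA removal. The deposited FPKM table was not used.

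Counts were set against the rest of each library with Fisher's exact test (scipy 1.17.1), with exact conditional (Clopper-Pearson) ratio intervals and Poisson intervals for CPM. edgeR's quasi-likelihood test could not be fitted with 1 library a side. Trends with GC or spliced length were removed by lowess (fraction 0.5) before an exact binomial test. Alternatives used TMM and exact tests of edgeR 4.0.16 and size factors of DESeq2 1.42.0. Named circRNAs are all calls, those at an adjusted p under 0.05 below 2-fold, the 10 most abundant, the 2 largest of each host list, the 5 highest and 5 lowest ratios at 50 or more counts, and the hosts and shares called (up to 10 of smallest p a direction). Some results under this rule are not reported here. Members, lists and tests were chosen with earlier results of these data known. Scripts were tested on simulated data.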

Additional observations from a re-analysis of the deposited data

How the results depend on the processing

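The main settings called 10 circRNAs higher and 6 lower in core occipital, with 29 at an adjusted p under 0.05 of any fold. Higher calls were 17 with TMM factors and 17 with DESeq2 size factors, and with TMM factors of all 4 libraries 5 were higher and 16 lower, with Kcnh5, Smarca2, Fmn1, Anapc1 and Fam53b still higher. Removing the GC trend left 4 higher, 2 lower and 17 of any fold, removing the spliced length trend 4, 2 and 11, and removing both 3, 2 and 8. The exact test of edgeR, with the coefficient of variation set to 0.1, gave 1 (Kcnh5), 0 and 1, and, set to 0.2, it gave 0, 0 and 0, against 304 and 164 at an unadjusted p under 0.05. Without the count filter there were 3, 0 and 10, and at 30 or more counts 12 lower and 46 of any fold. Host calls were 14 higher and 9 lower, and were 0 and 0 with edgeR at 0.2 (84 at an unadjusted p under 0.05). With the GC trend removed 7 hosts were higher, among them Gm47283, which has no GC value. The 5 calls on shares were 4 under either alternative. The median log2 ratio was 0.0081 with TMM factors and 0.019 with DESeq2 size factors, and the GC slope was 0.14 in single-exon circles. The cause of these moves was not tested, beyond the smaller or larger number of circRNAs tested at each count filter. The length trend and the TMM factors of all 4 libraries were chosen after seeing the data. No paired analysis was possible because each group has 1 library, and for the same reason no replicate could be left out. Scatter between pools of the same condition cannot be seen with 1 library a side.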

Other observations

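Single-exon circles, 183 of the 3424, summed to 6197 counts in core occipital and 6835 in sham, a pooled CPM ratio of 1.16, with 6 higher and 0 lower at an adjusted p under 0.05 by Fisher's exact test, where 15 of all 3424 were higher (0.438%) and 14 lower (0.409%). Circles of 3 or 4 exons, 1162 in number, summed to 20428 counts in core occipital and 28306 in sham, a ratio of 0.926. Of these 1162, 4 were higher and 8 lower at the same adjusted p. Circles of 10 or more exons, 182 in number, had a ratio of 1.05, with 3 higher, Fbxo38, C2cd5 and Anapc1, and 0 lower. The 31 circRNAs without a host gene summed to 253 counts in core occipital and 442 in sham, a ratio of 0.734, and none was called. Circles spanning over 100 kilobases of genome, 116 in number, had a ratio of 1.02 and none was called.

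Of the 3424 circRNAs, 7 had no count in core occipital and 1, the Smarca2 circle, none in sham. Those absent from core occipital had 10 or 11 counts in sham and an adjusted p of 0.131 by Fisher's exact test, so none passed. They include Eed exons 2 and 3, from the Polycomb complex that methylates histone H3, Camta1 exons 2 to 5, from a calmodulin-binding transcription activator, Ptpn4 exons 7 to 10, from a tyrosine phosphatase, and Ephx4 exons 2 to 5. A circle of Rasgrf2, an exchange factor of Ras, had 4 counts in core occipital against 18 in sham and missed the threshold of the share test.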
